A study of Homo sapiens with 6 samples.

Results

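The genes described here are those that set the activity of the first kinases of the cell cycle: the 3 D cyclins CCND1, CCND2 and CCND3, the G1 kinases CDK4 and CDK6, and 5 inhibitors of cyclin-dependent kinases (CDK), CDKN1A, CDKN1B, CDKN1C, CDKN2B and CDKN2C. They were chosen by gene symbol and make up 10 of the 28395 genes in the table. RNA was sequenced from HCC827, an established line of human lung adenocarcinoma cells whose growth depends on EGFR carrying an activating deletion. Cells at subconfluence received either the solvent DMSO or 1 μM erlotinib, an inhibitor of the EGFR tyrosine kinase, for 24 h, with 3 libraries in each group. Both groups share the cell line, the serum-containing medium and the duration of culture, so the only labelled difference is erlotinib. The labels do not say whether the libraries of a group came from separate cultures. The p-values therefore measure the spread between these libraries, which may be technical.

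D cyclins are made in response to growth factor signals and bind CDK4 and CDK6. The complexes phosphorylate the retinoblastoma protein RB and its relatives, which releases E2F transcription factors and starts the genes of S phase. The inhibitors of the INK4 family, among them p15 (CDKN2B) and p18 (CDKN2C), bind CDK4 and CDK6 alone, whereas those of the CIP/KIP family, p21 (CDKN1A), p27 (CDKN1B) and p57 (CDKN1C), bind complexes of cyclins and CDKs, above all those of CDK2. In lung adenocarcinoma with mutant EGFR the receptor drives this step largely through the MAPK and PI3K pathways.

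The libraries held between 20760204 and 24641819 reads assigned to genes. Values are given as signal, which is the number of reads of a gene divided by a factor for the depth of its library. Differences are erlotinib minus DMSO on the log2(signal + 1) scale, fitted with limma. The fit covered the 14215 genes whose signal averaged 10 or more, with Benjamini-Hochberg adjustment of their p-values. Genes are called lower or higher at an adjusted p under 0.05. As a check of the treatment label, all 9 tested genes of 10 that report MAPK output were lower with erlotinib, against 35.4% of all tested genes. DUSP6, a phosphatase of ERK, went from 1391 ± 25.3 to 68.2 ± 5.35 (SD, n = 3 per group), a difference of -4.33. SPRY4, a feedback inhibitor of receptor signaling, differed by -3.95, SPRED2 by -2.35 and DUSP5 by -2.12. IER3, the member that was not tested, has copies on alternate contigs of the genome, where reads can be lost.

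The epithelial label was checked too, and 9 of 10 epithelial markers were tested, of which 5 were lower with erlotinib, 2 higher and 2 neither, where 35.4% of all tested genes were lower and 35.3% higher. EPCAM, an adhesion molecule of epithelia, had a signal of 9852 ± 235 in DMSO and 9485 ± 281 in erlotinib, with a difference of -0.05 (adjusted p 0.43 by limma). KRT7, a simple epithelial keratin and the most abundant marker, had 123686 ± 7643 and 79897 ± 2922 and was lower (-0.63, adjusted p 1.3e-07 by limma). EGFR itself was present at 79645 ± 2441 and 45538 ± 3759, a difference of -0.81. The markers that differed most were the lung lineage genes NAPSA (1.92) and NKX2-1 (1.53), which were higher, and the keratins KRT18 (-1.25) and KRT8 (-0.83). SFTPB, a surfactant protein of alveolar cells, did not reach the minimum signal. Of 8 fibroblast markers only COL1A1 was tested, and it was higher with erlotinib by 1.47, the summed signal of the list being 73.7, 75.2 and 109 in DMSO against 260.2, 223 and 217 in erlotinib, with THY1 at 0. Of 6 endothelial markers VWF and PECAM1 were tested. VWF was higher by 2.74, from 3.94 ± 3.31 in DMSO to 27.4 ± 6.93 in erlotinib. It reached the minimum signal only through the erlotinib libraries, so nothing is read from its call. PECAM1 passed the test in neither direction. The summed signal of the list was 34.0, 15.8 and 24.6 against 58.1, 46.5 and 48.7, with CLDN5 at 0. Of 8 immune markers only CD68, a lysosomal protein that other cells also make, was tested, and it was higher by 0.23. The sums of that list were 2787, 2795 and 3172 against 3241, 3538 and 3473, with MS4A1 and FCGR3A at 0. The part of these markers in the results was not tested. In RNA from a whole culture, fewer cells of a kind and less RNA per cell cannot be told apart.

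Of the 10 genes, 8 had enough signal to be tested, and CCND2 and CDKN1C did not. With erlotinib 5 of the 8 were lower (CCND1, CCND3, CDK4, CDK6 and CDKN2C), 2 were higher (CDKN1B and CDKN2B) and CDKN1A passed in neither direction. Over all tested genes 35.4% were lower and 35.3% were higher, 70.7% together, so calls as such are common in this comparison. The values of erlotinib and DMSO did not overlap for 7 of the 8, with erlotinib lower for 5 and higher for 2. Over all tested genes the groups did not overlap for 73.6%, with erlotinib lower for 36.9% and higher for 36.7%. The median difference was -0.92 over the 8 and 0.02 over all tested genes. Both D cyclins with appreciable signal and both kinases fell, while the inhibitors divided, with p27 and p15 up and p18 down.

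**Figure D1:**
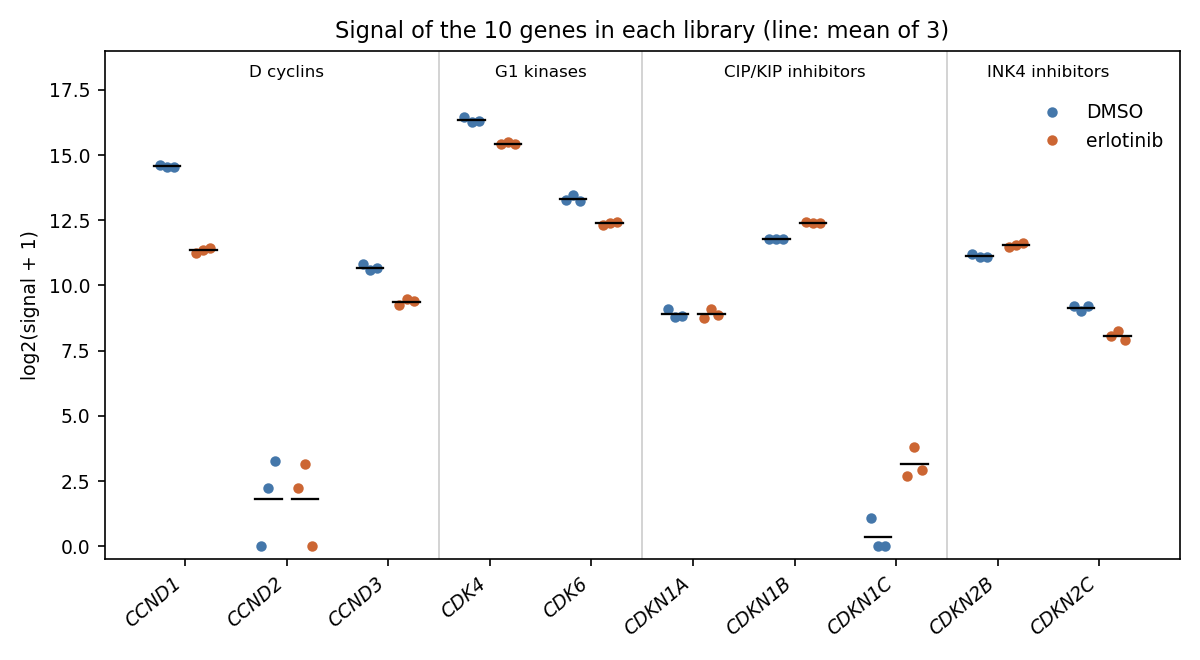
Signal of the 10 genes in each library as log2(signal + 1) on the vertical axis, grouped by role. Points are the 3 DMSO (blue) and 3 erlotinib (orange) libraries and black lines are their means on that scale. The groups are apart for CCND1, CCND3, CDK4, CDK6, CDKN1B, CDKN1C, CDKN2B and CDKN2C, the points of CDKN1A overlap, and CCND2 and CDKN1C lie near the bottom.

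CCND1, the cyclin D1 gene (Entrez 595, GRCh38 chr11:69641156-69654474, plus strand), had the largest difference among the 8 tested genes. Its signal was 25308, 23960.0 and 23906 in DMSO libraries 1, 2 and 3, and 2416, 2623 and 2760.5 in erlotinib libraries 4, 5 and 6. Every erlotinib library was far below every DMSO library. The group means were 24391 ± 794 and 2599.9 ± 173 (SD, n = 3), which leaves 10.7% of the DMSO level. The difference was -3.23 with a standard error (SE) of 0.066, a 95% interval of -3.37 to -3.09 and an adjusted p of 4.6e-19 by limma. Only 50 of the 14215 tested genes, or 0.352%, had a lower log2 difference.

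CCND3, the cyclin D3 gene (Entrez 896, chr6:41934933-42050035, minus strand), had a much lower signal. It read 1828, 1529 and 1609 in DMSO and 616, 715 and 676 in erlotinib. The groups were again fully separate, with 40.4% of the DMSO level left. The difference was -1.30 (SE 0.091, 95% interval -1.49 to -1.11, adjusted p 6.1e-11 by limma), and 974 tested genes had a lower one. The fall of CCND3 was smaller than that of CCND1, so the log2 ratio of CCND1 to CCND3 went from 3.88 ± 0.090 to 1.96 ± 0.078.

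CCND2, the cyclin D2 gene (Entrez 894, chr12:4273762-4305353, plus strand), was close to undetected. It had 0, 4 and 8 reads in the DMSO libraries and 4, 8 and 0 in the erlotinib libraries. A count of 0 still allows up to 3 reads, for counting error only. Each group summed to 12 reads, and the ratio after scaling for depth was 0.915 with a 95% counting interval of 0.376 to 2.23. At this depth a difference was not detectable. Without the minimum on the mean signal the limma difference was -0.04 (SE 0.87, adjusted p 0.98).

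CDK4 (Entrez 1019, chr12:57747727-57752310, minus strand) had the highest signal of the 10 genes. It read 89209.9, 79712 and 81592 in DMSO and 43662, 45977 and 43463 in erlotinib. The lowest DMSO library was well above the highest erlotinib library. The means of 83505 ± 5030 and 44367 ± 1398 differed by -0.91 (SE 0.068, 95% interval -1.05 to -0.77, adjusted p 1.9e-10 by limma), which leaves 53.1% of the DMSO level.

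CDK6 (Entrez 1021, chr7:92604921-92836573, minus strand), the other kinase partner of the D cyclins, fell by nearly the same factor. Its signal was 10038, 11236 and 9591 in DMSO and 5169, 5428 and 5514 in erlotinib. No erlotinib library came near the DMSO range. The difference was -0.94 (SE 0.068, 95% interval -1.08 to -0.79, adjusted p 1.2e-10 by limma), with 52.2% of the DMSO level left. The log2 ratio of CDK4 to CDK6 was 3.02 ± 0.17 in DMSO and 3.05 ± 0.059 in erlotinib, and the groups overlapped in it.

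The part of CDK4's locus toward its 3′ end is shared with a neighbour. TSPAN31, a tetraspanin gene, overlaps CDK4 by 2493 bp, and strand-aware counting was not stated for these data, so reads from the overlap cannot be assigned with certainty. TSPAN31 read 2375, 2424 and 2484 in DMSO and 8025, 8351 and 8172 in erlotinib. It therefore rose where CDK4 fell, by 1.75 (SE 0.063, adjusted p 1.5e-15 by limma). The microRNA gene MIR6759, which lies within both CDK4 and TSPAN31, was higher by 1.21 from a mean signal of 39.5 ± 6.89. At CDK6 and CCND2 the antisense genes were near or at 0, with CDK6-AS1 at a mean signal of 4.58 in DMSO and 0.945 in erlotinib and CCND2-AS1 at 0 in both, while CCND1, CDKN1B, CDKN1C and CDKN2C overlap no annotated gene.

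The sequences upstream of the kinase and p18 genes are printed because they hold the only matches among 8 motifs searched in the group. Of the 10 genes 7 had windows in the RefSeq promoter table (GRCh38.p14), 12 windows in all. CCND1, CCND2 and CDKN1C had none and were not searched. The search covered both strands of the 250 bases before each start. The E-box CACGTG, bound by MYC with MAX and by related factors, was in 3 of the 12 windows and in 6.34% of the 35116 windows of all genes. The CDK4 window holds 3 matches, at 216, 196 and 101 bases before the start, and 3 or more matches occur in 0.0797% of all windows. The capitals mark CACGTG, each line runs 5′ to 3′ on the strand of the gene, CDK4 covers chr12:57752311-57752560 on the minus strand, and the CDKN2C lines cover chr1:50960495-50960744 and chr1:50969995-50970244 on the plus strand:
CDK4: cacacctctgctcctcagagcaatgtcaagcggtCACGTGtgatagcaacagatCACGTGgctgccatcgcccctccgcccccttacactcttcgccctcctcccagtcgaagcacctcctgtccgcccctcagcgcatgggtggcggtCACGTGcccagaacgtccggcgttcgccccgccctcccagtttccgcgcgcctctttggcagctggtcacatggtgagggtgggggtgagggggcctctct
CDKN2C, upstream start: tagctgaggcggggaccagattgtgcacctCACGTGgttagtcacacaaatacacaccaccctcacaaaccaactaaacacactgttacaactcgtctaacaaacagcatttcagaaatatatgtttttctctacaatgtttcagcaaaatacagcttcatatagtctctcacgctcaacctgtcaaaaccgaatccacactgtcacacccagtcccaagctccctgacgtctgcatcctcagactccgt
CDKN2C, downstream start: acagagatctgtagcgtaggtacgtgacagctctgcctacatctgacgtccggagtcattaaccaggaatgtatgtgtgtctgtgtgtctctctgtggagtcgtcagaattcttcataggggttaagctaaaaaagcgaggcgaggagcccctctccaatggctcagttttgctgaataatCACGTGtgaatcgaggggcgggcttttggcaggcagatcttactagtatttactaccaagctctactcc

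In the CDKN2C windows printed above the match is 220 and 69 bases before the start. A further CDKN2C window between them, chr1:50968456-50968705, held no match. The windows with 3 or more CACGTG matches belong to 26 genes, of which 18 were tested. Of these 4 were lower with erlotinib, 7 were higher and 7 were neither, where 35.4% of all tested genes were lower and 35.3% higher, and nothing is read from these counts. None of the 12 windows held the E2F-type motifs TTTGGCGC (0.55% of all windows), TTTCCCGC (1.39%) or TTTGCCGC (0.49%). Nor did any hold the forkhead motif GTAAACA (2.98%), the AP-1 motif TGAGTCA (4.2%), the cyclic AMP response element TGACGTCA (1.65%) or the ETS motif CCGGAAGT (3.42%). These letters are absent from these windows, and nothing follows from that for the factors.

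**Figure D2:**
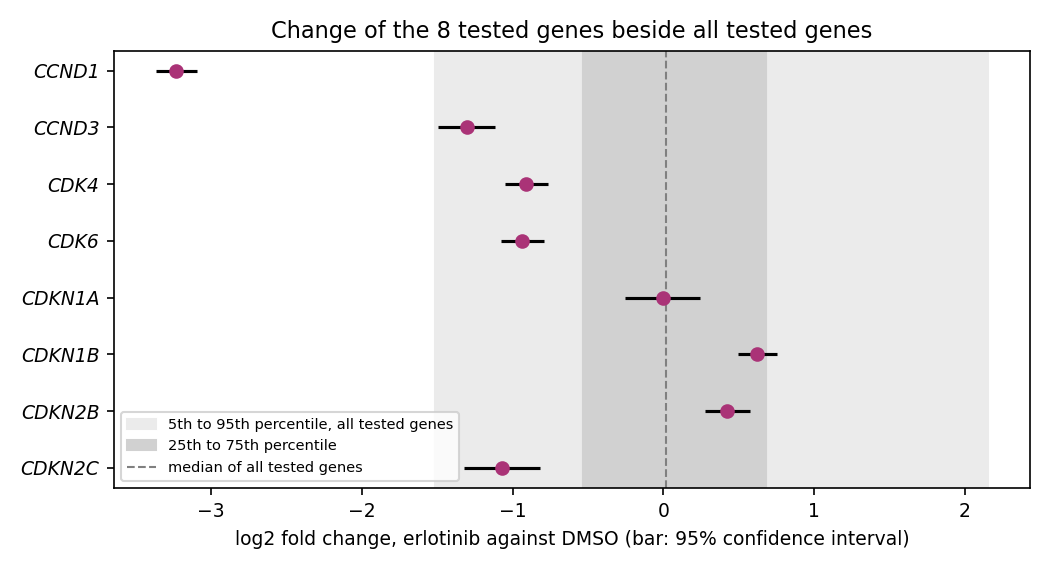
Log2 difference of erlotinib against DMSO for the 8 tested genes (points) with 95% intervals from limma (bars), over shaded bands for the central ranges of all 14215 tested genes and a dashed line at their median. CCND1 at -3.23 lies outside the wider band, CCND3, CDK4, CDK6 and CDKN2C lie in its lower part, and CDKN1A, CDKN2B and CDKN1B lie in the inner band.

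Among the CIP/KIP inhibitors, CDKN1B (p27, Entrez 1027, chr12:12717368-12722369, plus strand) rose. It read 3554, 3542 and 3522 in DMSO and 5486, 5453 and 5403 in erlotinib. The libraries of each group were nearly identical, with a coefficient of variation of 0.453% in DMSO and 0.768% in erlotinib, against medians of 10.4% and 6.70% over all tested genes. With 3133 to 5945 reads per library, counting error alone would give a larger spread, so nothing is read from this closeness. The means of 3539 ± 16.0 and 5447 ± 41.8 are 1.54-fold apart. The difference was 0.62 (SE 0.062, 95% interval 0.49 to 0.75, adjusted p 1.6e-08 by limma). A rise of this size was common, since 26.6% of all tested genes rose by more.

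CDKN1A (p21, Entrez 1026, chr6:36676463-36687332, plus strand), best known as a target of p53, did not pass the test in either direction. Its signal was 550.2, 442 and 459 in DMSO and 434, 548 and 464 in erlotinib. The ranges lie almost on top of each other. The difference was -0.01 (SE 0.12, adjusted p 0.97 by limma), and its 95% interval of -0.25 to 0.24 bounds the change that these libraries allow. The log2 ratio of CDKN1B to CDKN1A went from 2.88 ± 0.16 to 3.50 ± 0.18.

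CDKN1C (p57, Entrez 1028, chr11:2883218-2885775, minus strand), an imprinted gene, was scarcely detected. It had 1, 0 and 0 reads in DMSO and 6, 13 and 7 in erlotinib. The groups did not overlap, and the reads summed to 1 against 26, a ratio of 23.8 with a 95% counting interval of 3.91 to 975. It did not reach the minimum signal. Without the minimum, its limma difference was 2.78 (SE 0.62, adjusted p 0.00098), in a fit that called 28% of genes higher and 25.4% lower. Nearly all its reads came from the erlotinib libraries, and the size of the difference depends on the added 1. Nothing is therefore read from this call. Its transcript also aligns to an alternate contig at 99.85% identity, the only one of the 10 genes with such a copy, so its reads may be undercounted in both groups.

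The INK4 inhibitors moved in opposite directions. CDKN2B (p15, Entrez 1030, chr9:22002903-22009313, minus strand), a known target of TGF-beta signaling, read 2349, 2179.6 and 2209 in DMSO and 2868, 3006 and 3170.5 in erlotinib. All 3 erlotinib libraries were above all 3 DMSO libraries. The means of 2246 ± 90.7 and 3015 ± 151 are 1.34-fold apart, and the difference was 0.42 (SE 0.070, 95% interval 0.28 to 0.57, adjusted p 1.8e-05 by limma). The whole of CDKN2B lies within CDKN2B-AS1, a long noncoding RNA gene, which read 11.3, 30.6 and 35.3 in DMSO and 48.0, 51.5 and 74.9 in erlotinib and was higher by 1.26 (SE 0.38, adjusted p 0.0062 by limma). Without DMSO library 1 the difference was 0.77 (adjusted p 0.035 by limma). The signal of CDKN2B-AS1 was small beside that of CDKN2B.

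CDKN2C (p18, Entrez 1031, chr1:50960745-50974634, plus strand) fell. It read 586, 521 and 592 in DMSO and 264, 306 and 242 in erlotinib. The groups were well apart, with means of 566 ± 39.5 and 270.4 ± 32.7. The difference was -1.07 (SE 0.12, 95% interval -1.32 to -0.82, adjusted p 1e-07 by limma), close to those of CDK4 and CDK6. The log2 ratio of CDKN2B to CDKN2C went from 1.99 ± 0.083 to 3.48 ± 0.21.

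For 5 log2 ratios between genes of the group an exact permutation test (two-sided, n = 3 per group) was run, whose smallest possible p is 0.1. CCND1 to CCND3, CDKN1B to CDKN1A, CDKN2B to CDKN2C and CDK4 to CCND1 each reached p = 0.1 in this exact permutation test, or 0.125 after adjustment over the 5, with differences of -1.93, 0.63, 1.49 and 2.32 and no overlap between groups. The ratio of CDK4 to CDK6 differed by 0.02, with p = 1 in the same exact permutation test. With 3 libraries a group this test cannot go below 0.1, so its p says nothing on whether a ratio would pass 0.05 in another test. The ratios are formed within a library, so the depth factors enter them only through the added 1.

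To compare levels between genes, signal was divided by the length of all exons of a gene (exon union) in kb. On this scale CDK4 stood highest, at 26989 ± 1626 in DMSO and 14339.8 ± 452 in erlotinib per kb, above 99.9% of 13291 genes in both groups. CCND1 came next in DMSO, at 5123 ± 167 per kb, and was at 546 ± 36.4 in erlotinib. Its rank among all genes went from above 99.4% to above 88.6% of them. Of the other cyclins and kinases, CDK6 was at 841 ± 69.5 and 439 ± 14.7 per kb and CCND3 at 287 ± 26.9 and 116 ± 8.68 per kb. Among the 5 inhibitors CDKN2B had 562 ± 22.7 and 754 ± 37.8 per kb, CDKN1B 382 ± 1.73 and 589 ± 4.52, CDKN2C 188 ± 13.1 and 89.6 ± 10.8, and CDKN1A 161 ± 19.4 and 161 ± 19.8. In erlotinib CDKN2B and CDKN1B thus stood above CCND1, which had been far above both. This also held with the longest and with the canonical transcript as the length. Other places in the order depend on the length. The exon union of CDKN1B, 9255 bp, is longer than the span of its locus given above. Its longest and canonical transcripts have 4335 and 2411 bp, so the exon union may understate its level per kb. With the exon union the ranges of CDKN2C and CDKN1A overlapped in DMSO, whereas with canonical transcripts CDKN2C stood at 569 ± 39.7 and CDKN1A at 229 ± 27.5 per kb in DMSO, with no overlap. On that length CDKN1B, at 1468 ± 6.64 per kb in DMSO, stood above CDK6 at 882 ± 72.9, and CCND3 was at 817 ± 76.4.

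**Figure D3:**
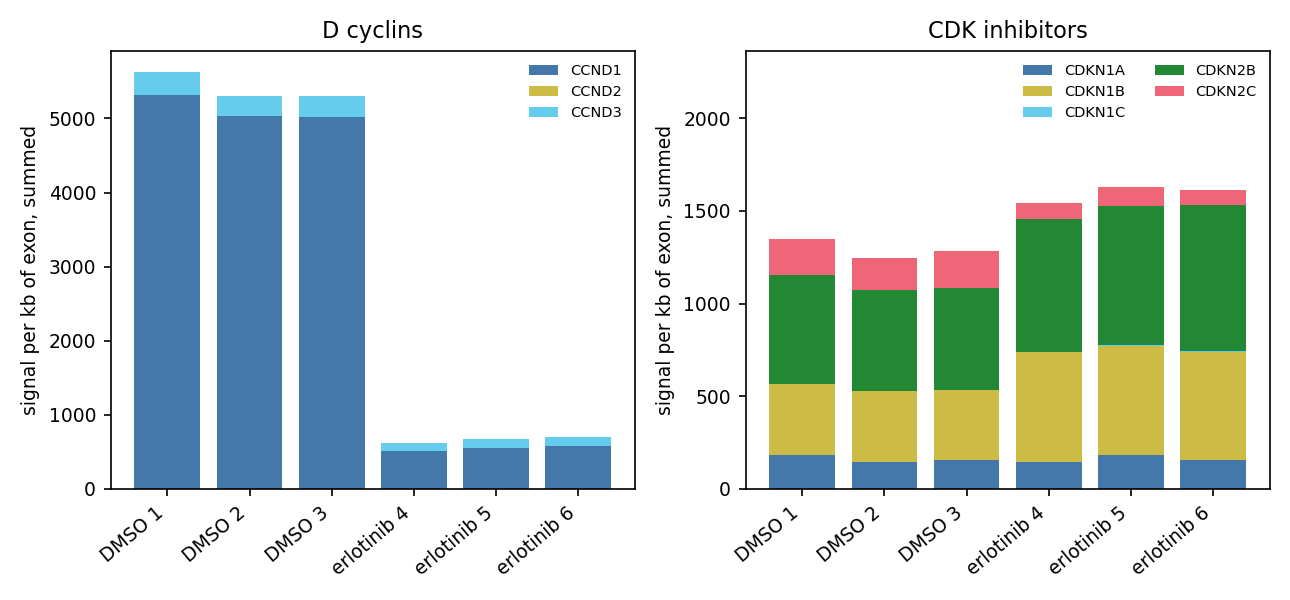
Signal per kb of exon union in each library, stacked by gene, for the D cyclins (left) and the 5 CDK inhibitors of the group (right), on axes of their own that start at 0. The D cyclin bars drop from a mean of 5411 to 663, nearly all of it CCND1, while the inhibitor bars go from 1293 to 1596 with a smaller CDKN2C segment in erlotinib. The exon union of CDKN1B is longer than the span of its locus, so its segment may be too small.

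Summed per kb, the D cyclins went from 5411 ± 192 to 663 ± 42.8, and the CCND1 share of that sum from 94.7% ± 0.31 to 82.4% ± 0.84, with CCND3 at 5.30% and 17.5%. The kinase sum went from 27829.8 ± 1597 to 14779 ± 455 per kb with CDK6 at 3.03% and 2.97% of it. The sum of the 5 inhibitors went from 1293 ± 51.9 to 1596 ± 45.7 per kb, with CDKN2B at 43.4% and 47.2%, CDKN1B at 29.6% and 36.9%, CDKN1A at 12.5% and 10.1%, and CDKN2C at 14.5% and 5.61%. The ratio of the D cyclin sum to the inhibitor sum was 4.17, 4.25 and 4.13 in the DMSO libraries and 0.398, 0.415 and 0.432 in the erlotinib libraries. The D cyclin sum was above that of these 5 inhibitors in every DMSO library and below it in every erlotinib library. The sum leaves out the other inhibitor genes, among them CDKN2A, whose signal of 15999 ± 2432 in DMSO and 13423 ± 655 in erlotinib was above that of each of the 5, so the ratio does not describe all CDK inhibitor RNA. The ratio of the kinase sum to the sum of the 5 inhibitors went from 21.5 ± 0.41 to 9.26 ± 0.24, and the D cyclin sum per kinase from 0.195 to 0.0449. These sums are descriptions of RNA, not of protein, and depend on the gene length used. The exon union of CDKN1B is longer than the span of its locus, so the larger share of CDKN2B rests on that length. With longest transcripts CDKN1B held 45.2% and CDKN2B 32.2% in DMSO. With canonical transcripts, CDKN1B rather than CDKN2B had the largest share among the 5 inhibitors (51.6% against 20.5% in DMSO), CDKN2C held 19.97% in DMSO and 7.66% in erlotinib, and the ratio of D cyclins to the 5 inhibitors was 2.31 in DMSO and 0.266 in erlotinib.

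Genes with the most similar pattern over the 6 libraries were sought among the 11068 genes whose signal averaged 100 or more, by the Euclidean distance between log2 values centred on DMSO. Nearest to CCND1, the largest fall, were RAD54L of recombination repair (distance 0.146, difference -3.22), the alpha-tubulin gene TUBA1B (0.197, -3.33) and the thymidylate synthase gene TYMS (0.203, -3.18). Nearest to CDKN1B, the largest rise among the 8 tested, were EIF4EBP2, a repressor of translation initiation (0.057, 0.60), the zinc finger gene ZMYM3 (0.059, 0.62) and PAM, an enzyme that amidates peptides (0.065, 0.63).

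Genes that act on the group or downstream of it were counted in lists, and every count is to be read against the 35.4% of all tested genes that were lower and the 35.3% that were higher. Of 16 genes of D cyclin and inhibitor turnover 9 were lower and 2 higher, against those shares of 35.4% and 35.3%. The other 5 passed in neither direction, and the median difference was -0.38. The lower ones included DTL, the CUL4 receptor that targets p21, from 1818 ± 291 to 137 ± 18.5 (-3.71), and the components of the ligase that degrades p27, CKS1B (-2.49), SKP2 (-1.37) and CUL1 (-0.92). The 2 higher genes were named after their values were seen. AMBRA1, the receptor through which D cyclins are degraded, was higher by 0.54 (1066 ± 81.9 to 1543 ± 63.3), as was the scaffold CUL4B by 0.42. The other CUL4 scaffold, CUL4A, was lower, from 3134 ± 238 to 2162 ± 126 (-0.53). DDB1, the most abundant gene of the list, was lower too, from 5676 ± 217 to 4291 ± 81.9 (-0.40). Both were also named after their values were seen.

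The next kinase module was lower throughout. All 7 tested genes of 8 in the cyclin E, cyclin A and CDK2 list, which includes the CDK-activating kinase, were lower, against 35.4% of all tested genes, with a median of -1.82. The difference was -3.16 for CCNE2, -3.03 for the phosphatase CDC25A, -2.99 for CCNA2 and -1.82 for CDK2. CDK7 is listed at 0 in every library, and its transcript aligns in full to an alternate contig at 99.93% identity. Of 8 genes for mitotic cyclins and CDK1, 7 were lower (against 35.4%, median -2.27), among them PKMYT1, an inhibitory kinase of CDK1 (-3.48), CDK1 (-3.03), CCNB1 (-2.49) and CCNF (-2.39).

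Of 4 other inhibitor genes 3 were lower, against 35.4% of all tested genes, too few to read a share from. CDKN3, which encodes a phosphatase of CDKs rather than a classic inhibitor, had a difference of -2.55 and CDKN2D (p19) one of -0.81 (adjusted p 0.00058 by limma). CDKN2A, the gene of p16 and ARF and the neighbour of CDKN2B, read 17226, 13198 and 17573 in DMSO and 13243, 14149.6 and 12877 in erlotinib, so the groups overlapped. Its call at -0.24 (adjusted p 0.016 by limma) rested on single libraries: the adjusted p was 0.07 without DMSO library 1, 0.12 without DMSO library 3, 0.052 without erlotinib library 4 and 0.069 without erlotinib library 6. CDKN2A was not higher with erlotinib in any of the fits run.

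Among 16 pocket protein, E2F and DREAM genes, the targets and partners of the D cyclin kinases, 10 were lower and 3 were higher, against 35.4% and 35.3% of all tested genes (median -0.94). The difference was -2.88 for E2F1, an activator of S phase genes, -1.84 for the pocket protein RBL1, -1.75 for E2F2 and -1.51 for TFDP1. The 3 higher genes, RBL2, TFDP2 and E2F5, also named after their values were seen, encode the pocket protein p130, an E2F partner and a further E2F, and rose by 1.16, 1.12 and 0.63. RBL2 went from 1350.0 ± 124 to 3008 ± 214. E2F4, the most abundant gene of the list and chosen in the same way, was lower, from 4996 ± 253 to 2313 ± 57.4 (-1.11). So were the DREAM genes LIN9 (-1.48), LIN52 (-1.39) and LIN54 (-0.91), while LIN37, RBBP4 and DYRK1A passed in neither direction. RB1 itself, the main substrate of the kinases and chosen in the same way, went from 1188 ± 147 to 698 ± 72.4, a difference of -0.77 (SE 0.10, adjusted p 9.6e-07 by limma).

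Genes for CDKs and cyclins outside the core cycle were mixed, 8 lower, 8 higher and 6 neither of 22 (median -0.07), near the shares of 35.4% lower and 35.3% higher over all tested genes. CCNG2, an unconventional cyclin, was higher by 1.51, CCNL2 of splicing by 1.34 and the Mediator kinase CDK19 by 1.25, and CCNYL1 differed by -1.46. Of 19 transcription factors known to act on these genes 18 were tested, with 7 lower and 6 higher, again near those shares. This depends on the scaling, since scaling to the total count gave 11 higher, against 43.4% of all tested genes. ETV5, FOSL1 and ETV4, ETS and AP-1 factors below MAPK signaling, differed by -4.38, -4.15 and -3.67. FOXO4, a forkhead factor restrained by AKT, rose by 2.79, with 249.6, 193 and 260.1 in DMSO and 1583, 1631 and 1617 in erlotinib.

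Finally, 18 p53 target genes other than CDKN1A gave 7 lower and 8 higher (median 0.12). TP53INP1 went from 221 ± 1.20 to 3530 ± 58.7 (3.99), BBC3, which encodes the BH3-only protein PUMA, rose by 2.66 and the secreted factor GDF15 by 1.44. AEN, an apoptotic nuclease, fell by 2.12. Both counts are near what 35.4% lower and 35.3% higher over all tested genes give, so nothing is read from them about p53 targets. Scaling to the total count gave 4 lower, against 27.7% of all tested genes under that scaling.

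**Figure D4:**
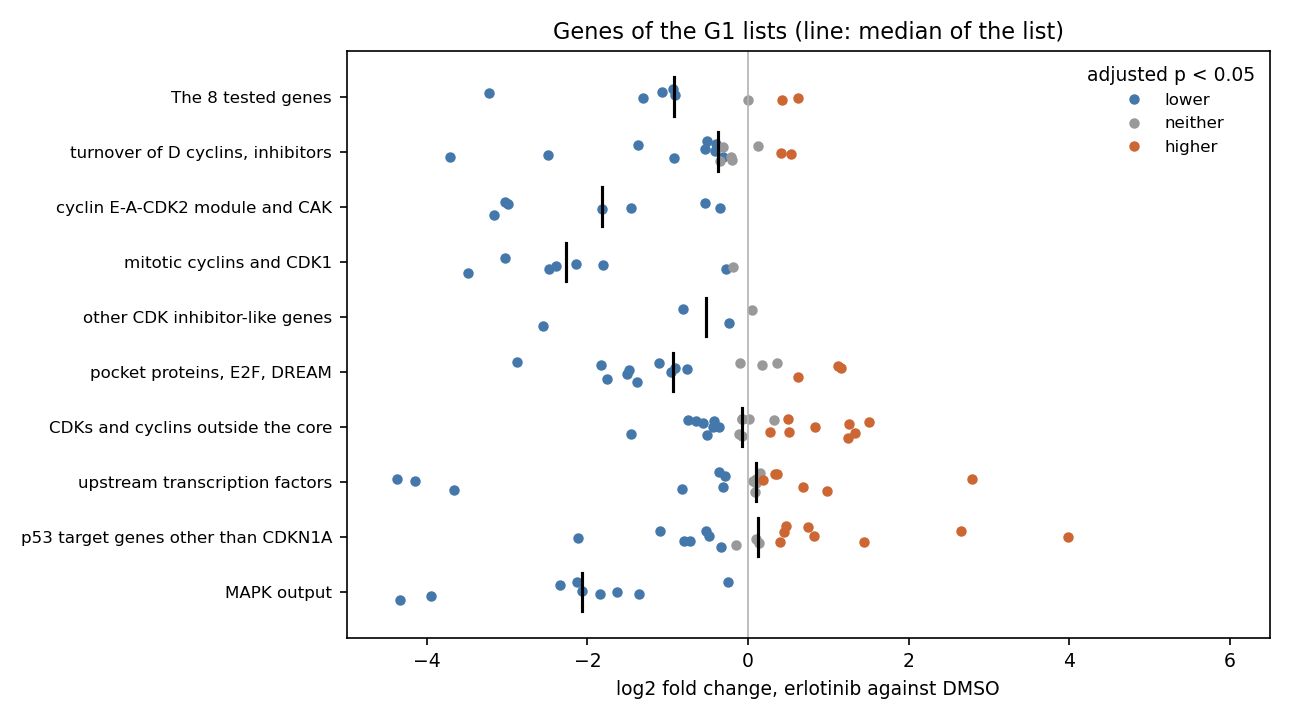
Log2 difference of erlotinib against DMSO for every tested gene in the group and in 9 lists around it, 1 row per list, with black lines at the medians. Blue points were called lower, orange points higher and grey points neither at an adjusted p under 0.05 by limma. All points of the rows for cyclin E, cyclin A and CDK2, for mitosis and for MAPK output lie below 0, whereas the rows for p53 targets and for CDKs and cyclins outside the core spread to both sides.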

How the data were processed

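RNA of HCC827 cells was sequenced after 24 h in DMSO or 1 μM erlotinib, with 3 libraries per group. Per the submitters' processing notes, reads were handled with Bowtie2 2.3.4, featureCounts 1.6.3 and DESeq2 1.18.1 on GRCh38. The deposited values are signal: dividing by the smallest unit of a library gives whole reads (tolerance 0.02), so each value is reads divided by 1 factor per library. The division and the strand counted are not given in the sources used here. Bowtie2 does not split reads over introns, so exon junctions count for less.

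Libraries held 20760204 to 24641819 reads, and replicate libraries differed by more than counting noise. Signal was tested with limma 3.58.1 (trend) on log2(signal + 1) for genes with a mean of at least 10, two-sided. The recovered reads were tested with edgeR 4.0.16 and DESeq2 1.42.0 as alternatives. Scaling, filter, pseudocount, threshold, library and gene length were also varied. The 475 genes without a symbol were kept. Alternate-contig copies were sought with minimap2 2.31-r1302 (at least 90% aligned at 97% identity). Intervals from reads cover counting error only. The script was tested on simulated data in which 200 genes were changed and 14188 were fitted. Far more genes were called in the real data, so that test did not check the scaling.

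The 10 genes and the lists were chosen with earlier results of these data known. Named were the 10 genes, up to 4 called genes per list with the largest difference, the 3 genes nearest to the largest rise and fall, and genes overlapping a member's locus. Outside this rule, and chosen after their values were seen, are EPCAM, KRT7, EGFR, RB1, PECAM1 and the genes that rose among the turnover and the pocket protein and E2F genes. So are CUL4A, DDB1, E2F4, LIN9, LIN37, LIN52, LIN54, RBBP4 and DYRK1A, and the genes named as untested or at 0 (IER3, SFTPB, CDK7, THY1, CLDN5, MS4A1 and FCGR3A).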

Additional observations from a re-analysis of the deposited data

How the results depend on the processing

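The 7 called genes of the group kept their direction and their call in all 105 values over 15 alternatives. CCND1 lay between -3.28 and -3.05, CCND3 between -1.36 and -1.13, CDK4 between -0.94 and -0.73, CDK6 between -0.98 and -0.76, CDKN2C between -1.16 and -0.89, CDKN1B between 0.62 and 0.80 and CDKN2B between 0.39 and 0.60. CDKN1A, never called, changed sign: it was 0.012 by edgeR with TMM factors, 0.00384 by edgeR with size factors, 0.00359 by DESeq2, 0.015 by limma-voom and 0.17 after scaling to the total count (adjusted p 0.19), and -0.10 to 0.091 with a library left out. Scaling to the total count moved the median of all genes to 0.20 and the split from 35.4% lower and 35.3% higher to 27.7% and 43.4%. It then gave 1 higher gene among the other inhibitors, 5 among the pocket protein and E2F genes, 11 among the transcription factors and 4 lower p53 targets, and CDKN2A lost its call (-0.06, adjusted p 0.51). Over all alternatives 6 to 7 genes were lower in the cyclin E, cyclin A and CDK2 list and 8 to 9 in the MAPK list. The mitotic list had 6 to 8 lower genes and the turnover list 8 to 11. The shares per kb depend on the length used, in longest and canonical transcripts in turn, the latter chosen after seeing the data. CCND1 was 89.3% and 87.6% of the D cyclins in DMSO and 68.7% and 65.0% in erlotinib. CDK4 was 98.1% of the kinases in all of them. CDKN1B was 45.2% and 51.6% of the 5 inhibitors in DMSO and 53.5% and 63.7% in erlotinib, and CDKN2B 32.2% and 20.5%, then 33.3% and 22.1%. No paired analysis was possible because the erlotinib columns are numbered 4 to 6 and carry none of the labels' replicate numbers. Depth limits CCND2 and CDKN1C, which rest on 26 reads or fewer per group.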
